A study of Drosophila melanogaster with 36 samples.

Results

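Female flies kept in filtered air were compared with male flies kept in the same way, in whole bodies, to describe which genes differ between the sexes and whether the difference holds on each sampling day. The comparison used 18 of the 36 libraries of an inhalation study, namely every library from air-breathing flies: 9 female and 9 male, with 3 of each sex on day 1, day 2 and day 7. All of these flies carried the genotype that the labels call WT, and no strain or age is given in the labels. The other libraries of the study came from flies that had breathed CMIT/MIT, a biocide mixture of chloromethylisothiazolinone and methylisothiazolinone, at 330 mg/m3 for 1 hour, and they served here only to repeat the sex comparison. Libraries were made from total RNA and read at the 3' end of each transcript, so a level does not scale with transcript length. Levels are given as CPM, each count divided by the library total and scaled to the usual base, with TMM scaling over the 18 air libraries. Log2 fold changes are female minus male from a fit with day as a block, and a gene was called at an adjusted p below 0.05.

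In Drosophila, sex is read from the dose of X chromosomes through the switch gene Sxl, whose product controls splicing of tra and, through it, of dsx and fru. Males raise transcription of their single X with a dosage compensation complex built on the roX RNAs, and females do not assemble it because Sxl blocks the protein MSL-2. An adult female body holds large ovaries full of nurse cells and growing eggs, and an adult male body holds testes, accessory glands and an ejaculatory duct and bulb. A whole-body comparison therefore sets organs found in a single sex beside organs that both sexes share. In such bulk RNA, fewer cells of a type and less RNA per cell cannot be told apart.

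Sex read from the titles matched the marker transcripts in each of the 18 libraries. The dosage compensation RNA lncRNA:roX1, called roX1 below (FBgn0019661; X, 3857230 to 3862697) ranged from 0.791 to 9.69 CPM with a median of 3.30 CPM in females, against 1322 to 1874 CPM with a median of 1513 CPM in males. Yolk protein gene Yp1 (FBgn0004045; X, 10053811 to 10055498) ranged from 6138 to 18210 CPM with a median of 9642 CPM in females, against 0.908 to 54.2 CPM with a median of 13.7 CPM in males. Neither gene overlapped between the sexes. Depth was 9525565 to 17182966 counts in females and 8133477 to 15444994 counts in males. At these depths 3 counts are worth 0.183 to 0.304 CPM in a female library and 0.192 to 0.363 CPM in a male library, and such floors cover counting error only. Log2 levels of replicates correlated at 0.929 to 0.994 over 18 pairs. Replicate 1 of the day 2 females stood apart from the other female libraries, with 416800 CPM of cytosolic ribosomal protein transcripts against 222400 to 262400 CPM in the remaining 8. The labels do not say whether replicates were separate cultures, so p-values measure the spread between these samples.

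Most genes differed between the sexes. Of 12852 genes tested, 4716 (36.7%) were called higher in females and 6406 (49.8%) lower (edgeR quasi-likelihood test, Benjamini-Hochberg adjustment, n = 9 a sex), so 86.5% of genes were called in either direction. At 4-fold or more, 1682 genes were higher in females and 4192 lower. At a fitted 256-fold or more, 81 were higher and 1259 lower, so the largest fitted differences were mostly on the side of lower expression in females. Fitted folds use no floor, and counts at or near 0 in the lower sex inflate them. Prosalpha6T, for example, was fitted at log2 -10.25 with no count in females, but 3 counts a library as the floor make it at least 51.5-fold lower. The number of genes past 256-fold above that floor was not counted. The median log2 fold change of all genes was -0.60, with quartiles at -2.73 and 1.12. DESeq2's size factors in place of TMM shifted that median by -0.34, and every change below is to be read relative to it. For 728 genes (5.66%) the 95% interval of the fold change lay wholly within 1.5-fold. Levels of the 9 females and the 9 males did not overlap for 6709 genes (52.2%), and they did not overlap within any of the 3 days for 7498 genes (58.3%).

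**Figure D1:**
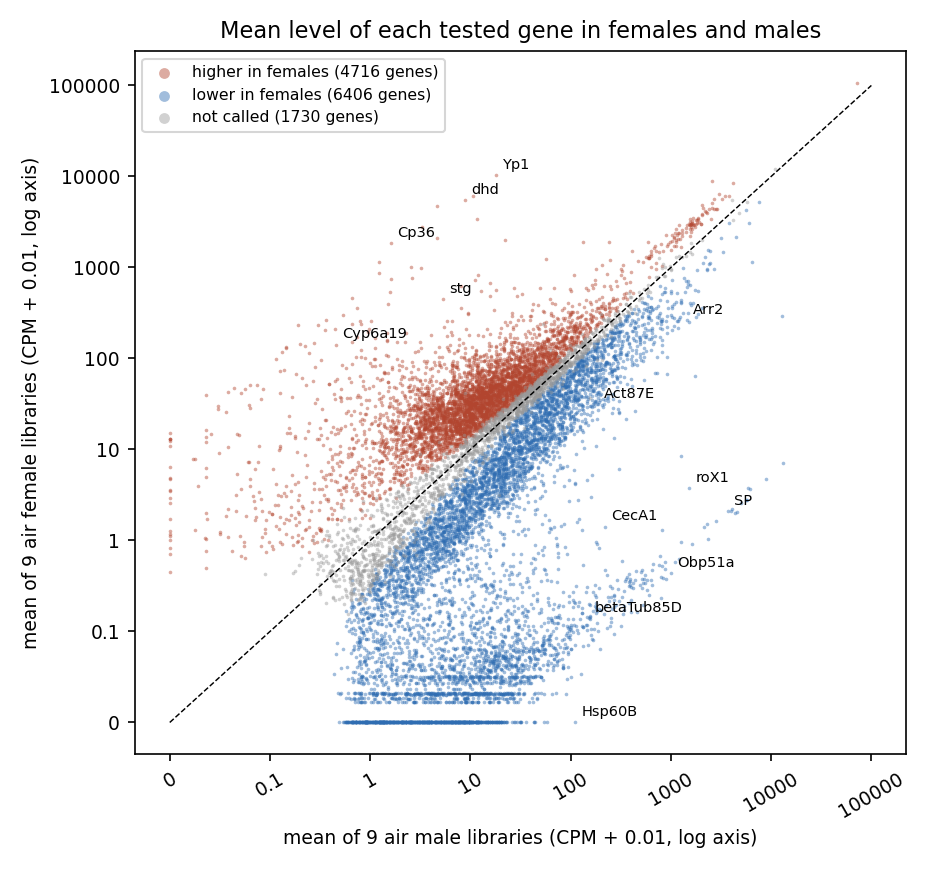
Mean level of each of the 12852 tested genes in 9 air female libraries (vertical axis) and 9 air male libraries (horizontal axis), both in CPM plus 0.01 on log axes, where the tick 0 marks genes without a count and the dashed line marks equal levels. Red points were called higher in females (4716), blue points lower (6406) and grey points were not called (1730). The blue cloud reaches down to genes with no count in females, among them Hsp60B with 111.1 CPM in males, and the lines of points along the bottom are genes with 0 or a few counts in all females together.

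Female libraries also detected fewer genes. A female library had 10332 to 12063 genes with at least 1 count (median 11465), against 13173 to 14162 in males (median 13587). At a common depth of 8133477 counts the medians were 11187 in females and 13433 in males, with no overlap between the sexes. There were 242 genes with no count in any of the 9 females and at least 5 CPM on average in males, and 7 genes with no count in any male and at least 5 CPM in females. Of the 242 genes, 214 are protein-coding, 28 are non-coding RNAs, and 173 have only a CG number as a symbol. The 7 genes were CG31926, Ser12, mir-313, CG31661, lncRNA:CR46147, CG43135 and asRNA:CR43460. Their mean levels in females ran from 6.37 CPM for asRNA:CR43460 to 15.1 CPM for CG31926, which makes them at least 22.1-fold to at least 52.3-fold higher in females, taking 3 counts a library as the floor. At most 3 counts over all 9 libraries, a looser limit, held for 789 genes in females and 23 in males. At the head of the genes without a count in females stood Hsp60B, which encodes a chaperonin of the male germline. It had 0 CPM in each female and 68.5 to 175 CPM in males with a median of 106.5 CPM, at least 429-fold lower in females. CG42393, which overlaps Eip75B, followed with 0 CPM in females and a mean of 58.3 CPM in males, at least 225-fold lower in females, and CG3517 with a mean of 54.5 CPM in males, at least 211-fold lower.

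Genes of the egg and its coat were among those highest above males. All 22 listed genes of chorion and vitelline membrane, the layers of the eggshell, were tested and called higher in females, and their median log2 fold change was 9.002. Their summed level ran from 9861 to 27360 CPM with a median of 19010 CPM in females, against 5.61 to 88.9 CPM in males. The sums of the sexes did not overlap. The chorion gene Cp36 had 517.5 to 3359 CPM in females (median 1822 CPM) and 0.248 to 4.94 CPM in males (median 1.21 CPM), which gives log2 10.18 (SE 0.42, adjusted p = 3.3e-15). For the vitelline membrane gene Vm26Aa it was 8.79 (SE 0.53, adjusted p = 1.7e-12). Vm26Ac had the largest fitted fold change of the genes that met the rule for naming, with 3.67 to 122.7 CPM in females and at most 0.118 CPM in males (log2 10.76, SE 0.48). These male values lie below the floor of 0.192 to 0.363 CPM, so the size of that fold and its rank rest on the fit. Second came Pxt, a cyclooxygenase-like enzyme gene, at 156.6 to 272.8 CPM in females and at most 1.18 CPM in males (log2 10.39, SE 0.41). Cp36, Cp7Fb and Cp7Fc lie on the opposite strand inside CG33223, which was lower in females (log2 -5.42), and the strand setting of the counting is not given in the sources used here.

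Yolk and oocyte genes behaved in the same direction. The 3 yolk protein genes and the yolk receptor gene yl were all called higher in females. Yp2 ran from 4112 to 11610 CPM in females and from 0.743 to 32.9 CPM in males, and Yp3 from 2081 to 8112 CPM in females and from 4.11 to 20.1 CPM in males. Log2 fold changes were 9.61 (SE 0.66) for Yp1, 9.44 (SE 0.65) for Yp2 and 8.14 (SE 0.34) for Yp3. The traces in males differed from library to library: for Yp1 they were 0.908, 2.93 and 5.53 CPM on day 1, 1.98, 13.7 and 41.5 CPM on day 2, and 54.2, 16.57 and 24.3 CPM on day 7. Chorion genes traced the same libraries, with the highest sums of 82.7 and 88.9 CPM in replicate 3 of the day 2 males and replicate 1 of the day 7 males. Whether these traces are transcripts of the males themselves was not tested.

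Among 38 listed determinants of oocyte and germline, 36 were tested, and 33 were higher and 3 lower in females (median log2 4.96). The thioredoxin gene dhd (FBgn0011761; X, 5312171 to 5313125), which the oocyte uses to unpack sperm chromatin, stood at 4087 to 8913 CPM in females with a median of 4936 CPM. Males had 0.495 to 34.7 CPM of dhd with a median of 6.44 CPM, and the gene differed by log2 9.61 (SE 0.54, adjusted p = 5.8e-13). Maternal tubulin gene alphaTub67C averaged 739 ± 138 CPM in females and 1.61 ± 1.88 CPM in males (SD, n = 9 each; log2 9.11, SE 0.50). The posterior determinant osk was low in females too, at 3.96 to 13.9 CPM, and had no count in 8 of 9 males. Log2 fold changes were 9.82 for plu, which controls the first embryonic cycles, 4.34 for the translational repressor smg, 8.97 for nos and 6.91 for the helicase gene vas. The 3 members lower in females were ord, a gene of sister chromatid cohesion in meiosis (-4.66), tsl (-1.38) and tud (-0.33).

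Genes that copy DNA and drive the cell cycle were higher in females throughout. Of 36 listed genes of DNA replication and cell cycle, 35 were tested and all 35 were higher in females (median log2 5.36). Their sum ran from 3679 to 6529 CPM in females and from 117.7 to 219.8 CPM in males. The Cdc25 phosphatase gene stg, which triggers mitosis, had 233.1 to 557.3 CPM in females with a median of 471.2 CPM, against 2.88 to 9.06 CPM with a median of 5.47 CPM in males (log2 6.41, SE 0.22, adjusted p = 1.6e-16). Cyclin gene CycB had a log2 fold change of 6.09 (SE 0.23), the ribonucleotide reductase gene RnrS 5.53 (SE 0.21) and the primase gene Prim1 3.97 (SE 0.15). In 33 of the 35 the call held on each day taken alone.

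The machinery of protein synthesis and turnover was higher in females by smaller factors. Of 92 cytosolic ribosomal protein genes, 91 were tested, 84 were higher and 7 lower, with a median log2 fold change of 0.88. The sums were 222400 to 416800 CPM in females and 110100 to 177400 CPM in males, and without the female library that stands apart the counts were 83 higher and 7 lower. With DESeq2's size factors 75 were higher and 7 lower, at a median of 0.55. The 7 that were lower were RpL10Aa (-8.51), RpS28-like (-8.91), RpL22-like (-7.92), RpL37b (-7.09), RpS28a (-6.11), RpS10a (-5.54) and RpS19b (-4.69), each a second copy of a ribosomal protein gene. None of the 7 exceeded a mean of 0.374 CPM in females. Of 32 ubiquitous proteasome subunits, 31 were tested and 30 were higher in females (median log2 1.03; 26 with DESeq2's size factors), for example Prosalpha4 at 256.4 ± 69.0 CPM in females and 93.2 ± 26.5 CPM in males (SD, n = 9 each).

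**Figure D2:**
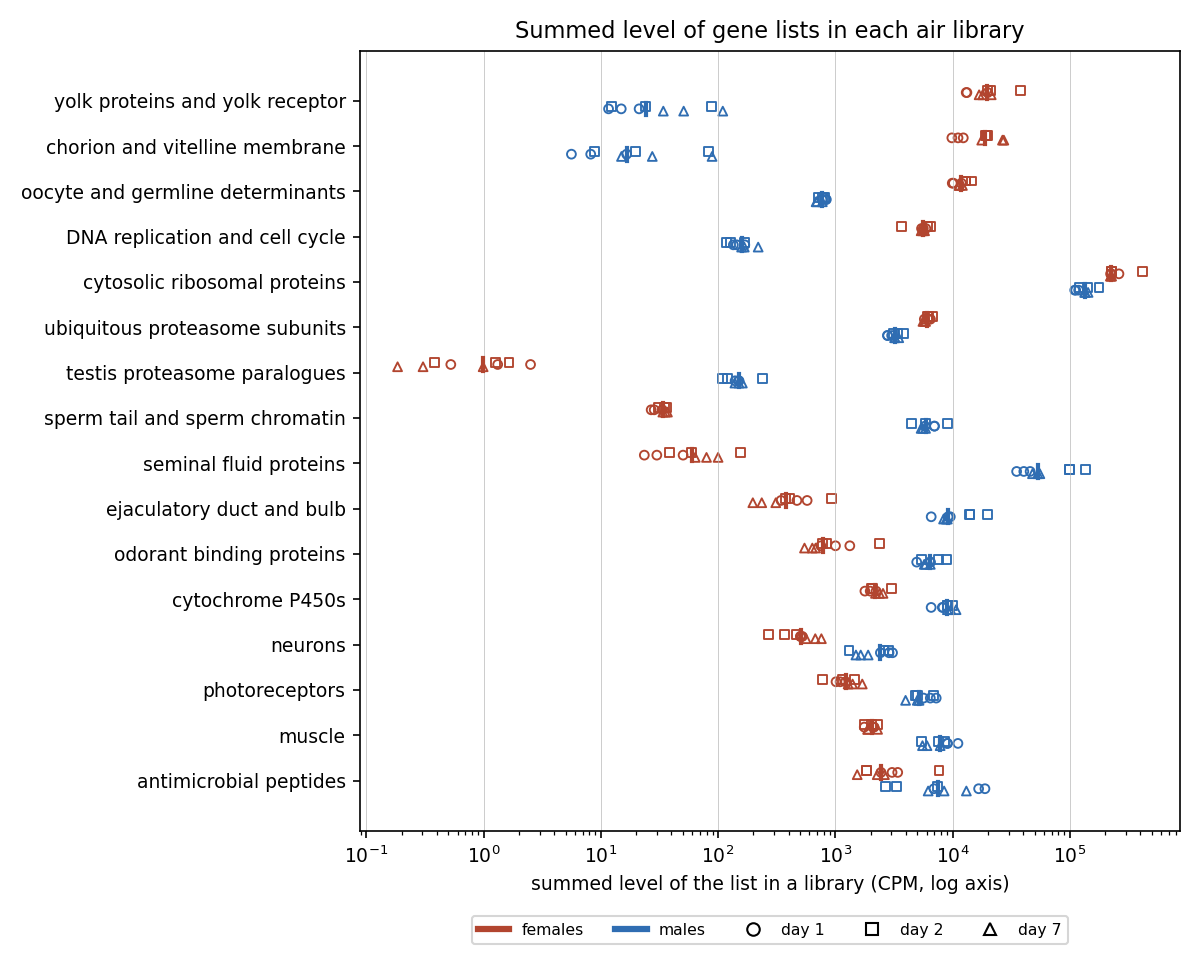
Summed level of the members of 16 gene lists in each air library, in CPM on a log axis, with females in red above males in blue. Symbols mark days 1, 2 and 7, and vertical bars the median of 9 libraries. Eggshell sums lie at 9861 CPM or more in females and at 88.9 CPM or less in males, seminal fluid sums lie at 154.9 CPM or less in females and at 35180 CPM or more in males, and antimicrobial peptide sums overlap.

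Testis genes gave the reverse picture. Of 43 listed genes of sperm tail and sperm chromatin, 42 were tested and all 42 were lower in females (median log2 -9.83). Their sum was 26.9 to 37.0 CPM in females and 4465 to 9034 CPM in males. The testis beta tubulin gene betaTub85D, which builds the sperm axoneme, had 0 to 0.366 CPM in females with a median of 0.072 CPM, against 92.6 to 221.1 CPM with a median of 156.4 CPM in males (log2 -10.03, SE 0.36, adjusted p = 4.1e-16). The sperm tail gene dj had a log2 fold change of -10.47 (SE 0.37), its relative djl -10.95 (SE 0.29), Mst87F -9.88 (SE 0.32) and the protamine gene ProtA -8.72 (SE 0.43). ProtA has a close copy, ProtB, and Mst98Ca has Mst98Cb, so the split of reads within each of these pairs is uncertain. ProtB was likewise lower in females (-10.31).

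Y-linked genes had almost no count in females, which carry no Y. Of 12 listed, 8 were tested, and the 8 summed to at most 0.768 CPM in females and to 18.5 to 44.4 CPM in males. The dynein heavy chain gene kl-5 had at most 0.192 CPM in females and 3.83 to 15.6 CPM in males (log2 -7.25, SE 0.53), and kl-2 had a log2 fold change of -6.82 (SE 0.61).

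Of 18 genes of testis transcription and meiotic arrest, 14 (77.8%) were lower and 3 (16.7%) higher in females, against 49.8% and 36.7% of all genes. The lower ones included the testis-specific TAF genes can (0 CPM in females, 0.922 to 2.82 CPM in males, at least 7.20-fold lower), nht (-7.79, SE 0.58) and mia (-2.39, SE 0.54), the meiotic arrest gene aly (-7.41, SE 0.57) and the RNA-binding gene bol (-2.65, SE 0.12). The 3 higher in females were bam (10.2 CPM in females and 0.115 CPM in males on average, log2 6.64), tut (2.52) and the Cdc25 gene twe (1.89). Of these, bam acts in germline differentiation and twe in meiosis in both sexes.

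Related genes within single families differed between the sexes in many of the listed pairs. In 25 of 25 pairs the log2 fold change of the second member was below that of the first, in 22 the second was called lower in females, and in 20 the 2 members were called in opposite directions. In most pairs the second member is known from the testis, and in others, such as alphaTub67C with the broadly used alphaTub84B, the first is the germline gene. The order of the members was set with that knowledge, so these counts describe the choice. The calls also depend on scaling. With DESeq2's size factors in edgeR, the first members Prosbeta2 (0.21, adjusted p = 0.095), ATPsynbeta (0.008, adjusted p = 0.951) and RpL22 (-0.05, adjusted p = 0.695) were not called. The second member alphaTub84D was then called lower (-0.58). For the proteasome subunit alpha6, Prosalpha6 was at 201.6 CPM in females and 87.9 CPM in males, whereas Prosalpha6T had no count in females and 13.3 CPM in males (at least 51.5-fold lower). Pglym78 and Pglym87, 2 phosphoglycerate mutases, had log2 fold changes of 0.87 and -10.75, and the translation factors eIF4E1 and eIF4E3 1.78 and -8.91. Somatic cytochrome c gene Cyt-c-p was weakly higher in females (0.60, SE 0.24, adjusted p = 0.0238; 0.25 and adjusted p = 0.303 with DESeq2's size factors), and its testis relative Cyt-c-d was lower (-10.30, SE 0.33). All 21 oxidative phosphorylation relatives whose names end in L were lower in females, for example COX4L (at most 0.099 CPM in females, 38.7 to 66.8 CPM in males).

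A pair of thioredoxin genes showed the contrast between neighbours. The gene TrxT, known from the testis, ends 282 bases from dhd on the X (5310581 to 5311888). Females had 0 to 0.384 CPM of TrxT and males 46.6 to 99.2 CPM (log2 -8.66, SE 0.35, adjusted p = 2.0e-15), against 9.61 for dhd. The genes Cyt-c-p and Cyt-c-d lie 296 bases apart on 2L. In the third such pair, janA was higher in females (0.71, SE 0.15) and janB lower (-7.71, SE 0.29), and those genes overlap by 107 bases on the same strand, so that reads there are hard to assign.

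The largest sums lower in females were those of seminal fluid. All 63 listed seminal fluid protein genes were tested and lower in females (median log2 -10.69), and the sums ran from 23.5 to 154.9 CPM in females and from 35180 to 136300 CPM in males. Male sums differed by day as well, at 35180 to 45850 CPM on day 1, 98720 to 136300 CPM on day 2 and 48030 to 55520 CPM on day 7. Sex peptide gene SP, whose product changes female behaviour after mating, had 0.150 to 4.99 CPM in females (median 2.14 CPM) and 1813 to 7337 CPM in males (median 3035 CPM; log2 -10.86, SE 0.40, adjusted p = 5.4e-16). The ovulin gene Acp26Aa had at most 0.305 CPM in females and 181.7 to 943.7 CPM in males (log2 -11.39, SE 0.30). Accessory gland gene Acp29AB had no count in females and was at least 171-fold lower. Of the ejaculatory duct and bulb list, 5 of 5 genes were lower, among them Ebp (-10.66), EbpII (-10.65) and the esterase gene Est-6 (-3.75, SE 0.24), which had 32.6 to 173.4 CPM in females. Odorant binding proteins followed the same pattern in part. Of 51, 33 were tested, 28 (84.8%) were lower and 1 (3.03%) higher in females, against 49.8% and 36.7% of all genes. Obp56g, known from the ejaculatory bulb, had 5.45 to 17.3 CPM in females and 746.4 to 2125 CPM in males (log2 -7.20, SE 0.21), Obp51a had a log2 fold change of -11.23, and Obp19c was the 1 that was higher (40.9 CPM in females and 0.429 CPM in males on average, log2 6.29, SE 0.49).

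Genes that set sex differed by less. Of 12 sex determination genes, 7 were higher (58.3%) and 4 lower (33.3%) in females, against 36.7% and 49.8% of all genes. Their median log2 fold change was 0.89. The switch gene Sxl was at 223.5 ± 36.6 CPM in females and 126 ± 21.9 CPM in males (SD, n = 9 each; log2 0.84, SE 0.12, adjusted p = 1.2e-06), and tra at 23.5 ± 2.26 CPM in females and 12.3 ± 3.33 CPM in males (log2 0.95, SE 0.16). The splicing cofactor gene tra2 had 49.1 to 87.2 CPM in females and 9.65 to 18.02 CPM in males (log2 2.33, SE 0.13). The 4 lower in females were dsx (-1.57, SE 0.30), fru (-1.61, SE 0.15), bab1 (-1.79) and bab2 (-1.61), of which dsx and fru encode the sex-specific transcription factors at the end of the cascade. Splice forms, in which Sxl, tra, dsx and fru differ between the sexes, are not resolved by counts per gene. In the dosage compensation list of 8 genes, 4 were higher (50%) and 3 lower (37.5%) in females. Besides roX1 (log2 -8.85, SE 0.39), roX2 was at 0 to 0.157 CPM in females and 23.2 to 70.8 CPM in males (log2 -9.17, SE 0.35), and msl-2 was lower (-1.44, SE 0.35). The partners msl-1 (2.50, SE 0.17), Clamp (2.59, SE 0.25), mof (2.09, SE 0.23) and msl-3 (1.66, SE 0.31) were higher in females, and for mle the values were 25.6 CPM in females and 32.4 CPM in males (log2 -0.28, SE 0.20, adjusted p = 0.192).

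Chromosome arms differed in their mix. On the X, 891 of 2035 tested genes (43.8%) were higher and 850 (41.8%) lower in females (median log2 0.10). On the large autosome arms 33.7% to 37.1% of genes were higher and 49.6% to 53.9% lower, with medians from -1.04 on 2L to -0.56 on 3L. With DESeq2's size factors the X had 37.6% higher and 46.2% lower genes and a median of -0.24, so that the X median changed sign and more genes were lower than higher, and the autosome medians lay between -1.37 and -0.90. The X median lay above that of every large autosome arm under TMM, size factors and library totals. Chromosome 4, with 94 tested genes, had 34% higher and 48.9% lower, but only 2 of its genes (2.13%) were higher at 4-fold or more, against 13.1% of all genes. The mitochondrial genome had 35 tested genes, of which 1 was higher and 4 lower.

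**Figure D3:**
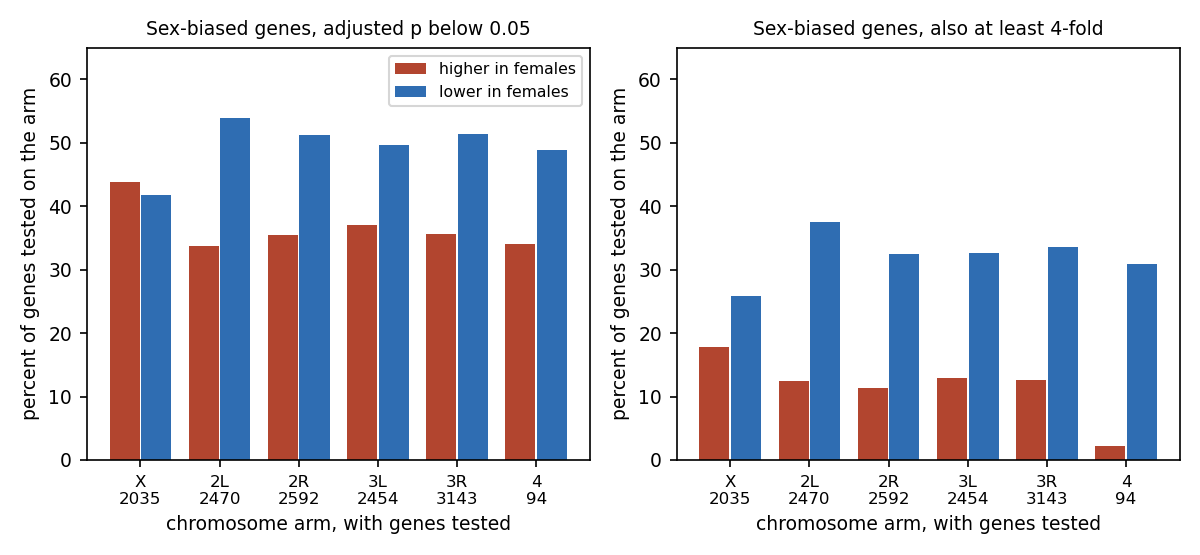
Share of the genes tested on each chromosome arm that were called higher (red) or lower (blue) in females, for all calls on the left and for calls of at least 4-fold on the right; the number under each arm is its tested genes. The X has the highest share of genes higher in females in both panels (43.8% and 17.8%), and chromosome 4 has 2.13% at 4-fold or more.

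RNA classes and levels also differed. Of 981 non-coding RNA genes tested, 727 (74.1%) were lower in females and 99 (10.1%) higher (median log2 -4.94), against 48.4% lower and 38.8% higher among 11717 protein-coding genes. Small nuclear RNAs went the other way, with 22 of 26 higher and none lower in females, as did small nucleolar RNAs, with 38 of 74 higher and 2 lower. For example, the minor spliceosome RNA snRNA:U11 was at 188.2 ± 86.4 CPM in females and 2.28 ± 1.04 CPM in males (SD, n = 9 each; log2 6.36, SE 0.31), and snRNA:U4:39B at 312.5 ± 274 CPM in females and 9.42 ± 3.89 CPM in males (log2 4.91, SE 0.33). With genes ranked by mean level and split into 4 equal classes of 3213, the lowest class had 72.1% lower and 9.27% higher in females, and the class just above the median had 32.2% lower and 56.5% higher. Genes known by a CG number were lower in 59.2% and higher in 29.1% of 4986 cases. A gene near the limit of the count filter could pass it through 1 sex alone, and levels were averaged over both sexes. The shares in the lowest class therefore depend in part on the filter and the ranking. How far this shapes them, or the shares of non-coding RNAs and CG genes, was not tested.

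Markers of neurons, photoreceptors and muscle, which both sexes have, were mostly lower in females. All 27 neuron genes were tested and lower, with a median log2 fold change of -2.66, and sums of 268.5 to 760.4 CPM in females and 1309 to 3075 CPM in males. The synaptic gene cpx had 21.3 to 42.4 CPM in females and 120.9 to 296.1 CPM in males (log2 -2.69, SE 0.18, adjusted p = 1.6e-11), the neuronal RNA-binding gene elav -2.34 (SE 0.18) and the synaptotagmin gene Syt1 -2.90 (SE 0.24). All 23 photoreceptor genes were lower too (median -2.28), for example the arrestin gene Arr2 at 120.4 to 416.3 CPM in females and 1026 to 2117 CPM in males (log2 -2.46, SE 0.21), and Rh6, an opsin gene of the compound eye (-2.64, SE 0.19). Of 26 muscle genes, 25 were lower (median -2.07), with sums of 1765 to 2292 CPM in females and 5440 to 11110 CPM in males. The actin genes Act87E and Act79B had log2 fold changes of -2.56 (SE 0.15) and -2.63 (SE 0.16). In all 3 lists the sums of the sexes did not overlap. Midgut digestive enzymes, also of a shared organ, had fewer calls, and their counts moved with 1 library. Of 44 tested, 17 (38.6%) were lower and 4 (9.09%) higher in females, against 49.8% and 36.7% of all genes. Their median log2 fold change was -0.51, near the -0.60 of all genes, and their sums overlapped. Without replicate 1 of the day 2 females, 23 were lower and 3 higher, at a median of -0.92. With DESeq2's size factors 21 were lower and 2 higher, at -0.82 against -0.93 for all genes. In exposed flies 29 were lower and 2 higher, at -1.59 against -0.80 for all genes. CPM are shares of a library, and a smaller share cannot be told apart from a smaller amount of RNA in the organ.

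Among detoxification genes, cytochrome P450s had a larger share lower in females than all genes, of which 49.8% were lower and 36.7% higher. Of 83 cytochrome P450 genes, 76 were tested, 57 (75%) were lower and 6 (7.89%) higher in females (median log2 -1.63), with sums of 1788 to 3030 CPM in females and 6566 to 10710 CPM in males. Cyp312a1 had 0.710 to 5.66 CPM in females and 65.9 to 201.9 CPM in males (log2 -6.19, SE 0.30), and Cyp4d21, known for its male-biased expression in the head, -6.51 (SE 0.43). Cyp6a19 was the largest exception, with 77.4 to 214.5 CPM in females and at most 1.29 CPM in males (log2 8.48, SE 0.42, adjusted p = 5.7e-14). It overlaps Cyp6a9 on the other strand, which was lower in females (-1.45, SE 0.35). The other 5 that were higher were Cyp6v1 (2.20), Cyp6u1 (1.83), Cyp6a22 (1.41), Cyp6t1 (0.90) and Cyp6d2 (0.78), all of the Cyp6 family. Glutathione transferases were mixed, with 10 higher and 18 lower (54.5%) of 33 tested, a share lower near that of all genes, such as GstE13 (2.48, SE 0.23) and GstO1 (1.86, SE 0.13) on the side higher in females and GstS1 (-1.91, SE 0.12) on the lower side. Of 25 tested UDP-glycosyltransferases, 15 were lower (60%) and 2 higher, with Ugt50B3 at -4.67 (SE 0.27) and Ugt316A1 at 1.99 (SE 0.22).

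Cuticular hydrocarbons serve as sex pheromones, and their enzymes split by sex. Of 9 tested genes, 2 were higher in females, namely the female elongase gene eloF (31.5 to 164.5 CPM in females and 0.067 to 4.30 CPM in males; log2 5.57, SE 0.45) and the desaturase gene Fad2, also called desatF (192.8 CPM in females and 1.48 CPM in males on average; log2 7.41, SE 0.72). The 7 that were lower included the elongase gene Elo68alpha (at most 0.099 CPM in females and 6.72 to 33.2 CPM in males; log2 -9.47, SE 0.43) and Cyp4g1, which carries out the last step of hydrocarbon synthesis (859.3 to 1501 CPM in females and 4501 to 7866 CPM in males; log2 -2.49, SE 0.13). Each of these 9 calls held on each day. Of 97 cuticle protein genes 31 were tested, and 25 (80.6%) were lower and 1 (3.23%) higher in females, against 49.8% and 36.7% of all genes. Cpr67Fb had at most 0.507 CPM in females and 21.7 to 207.7 CPM in males (log2 -8.93, SE 0.40).

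Hormone, stress and clock lists held genes called in both directions. Insulin-like peptide gene Ilp8, known from mature follicles, had 56.4 to 199.8 CPM in females and 0.242 to 4.54 CPM in males (log2 5.33, SE 0.32). The insulin antagonist gene ImpL2 (-1.68, SE 0.13), the neuropeptide gene NPF (-1.78, SE 0.18) and the translation inhibitor gene Thor (-1.69, SE 0.17) were lower. Among 22 tested genes of juvenile hormone and ecdysone, 6 were higher (27.3%) and 11 lower (50%) in females, near the 36.7% and 49.8% of all genes. The ecdysone synthesis genes spo (4.65, SE 0.76) and phm (4.05, SE 0.82) were higher at means of 1.08 and 1.33 CPM in females, and the juvenile hormone target Kr-h1 (-2.04, SE 0.27) was lower. Of 15 tested heat shock genes, 5 were higher (33.3%) and 6 lower (40%), also near the shares of all genes. The small heat shock genes Hsp26 (1564 to 3580 CPM in females and 59.5 to 285.1 CPM in males; log2 3.89, SE 0.30) and Hsp27 (3.06, SE 0.16) and the heat shock factor gene Hsf (1.72, SE 0.13) were higher, and the cochaperone gene stv (-2.25, SE 0.16) was lower. Of 11 clock genes, cyc (1.74, SE 0.15) and the kinase gene dco (1.68, SE 0.13) were higher (18.2%, against 36.7% of all genes). The other 9 were lower (81.8%, against 49.8% of all genes), among them tim (-1.73, SE 0.16) and Pdp1 (-1.77, SE 0.13).

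Among genes of energy metabolism, nuclear genes of oxidative phosphorylation were mostly called lower in females, but their median lay above that of all genes. Of 64 tested nuclear genes of oxidative phosphorylation, 48 (75%) were lower and 4 higher in females, at a median log2 of -0.45 against -0.60 for all genes. With DESeq2's size factors 57 were lower and 0 higher, at a median of -0.79 against -0.93 for all genes. ND-51 was at 178.4 to 320.3 CPM in females and 337.5 to 487.9 CPM in males (log2 -0.93, SE 0.12). Of the 15 mitochondrially encoded genes, 11 were not called, 3 were lower (20%, against 49.8% of all genes) and 1 was higher. Their sums overlapped, with medians of 148500 CPM in females and 111300 CPM in males. The 1 higher was the large ribosomal RNA lrRNA (0.54, SE 0.25, adjusted p = 0.0463; 0.20 and adjusted p = 0.463 with DESeq2's size factors). With those size factors the list had 8 lower and 0 higher, and without the female library that stands apart 5 lower and 0 higher. The fat body list had 13 lower (72.2%) and 1 higher (5.56%) of 18 tested, against 49.8% and 36.7% of all genes. The fatty acid synthase gene FASN1 was at -1.61 (SE 0.14) and the acetyl-CoA carboxylase gene ACC at -1.41 (SE 0.12).

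Immune peptides were mostly lower in females with the days together and on days 1 and 7, but not on day 2. Of 31 antimicrobial peptide genes, 29 were tested. Over the 3 days together 22 (75.9%) were lower and 0 higher, against 49.8% and 36.7% of all genes. Only 5 of the 29 were called lower on each day, against 34.6% of all genes. Taken alone, day 1 had 23 lower, day 2 had 6 lower and 3 higher, and day 7 had 18 lower. Of all genes, 44.6%, 40.4% and 42.6% were lower on those days. Their sums overlapped, at 1537 to 7670 CPM in females and 2677 to 18890 CPM in males. The cecropin gene CecA1 was an exception with separate sexes, at 0.144 to 2.98 CPM in females and 163.3 to 275.2 CPM in males (log2 -7.33, SE 0.32), and its near copy CecA2 had -5.85 (SE 0.55), though the split of reads between such copies is uncertain. Without the female library that stands apart, 25 of the 29 were lower.

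The next question was whether the sex difference holds on each day. Taken alone, day 1 had 3958 genes higher (30.8%) and 5727 lower (44.6%) in females, day 2 had 4142 higher (32.2%) and 5194 lower (40.4%), and day 7 had 4099 higher (31.9%) and 5471 lower (42.6%), each with n = 3 a sex and a spread shared over the 18 libraries. On each of the 3 days, 3435 genes (26.7%) were called higher and 4442 (34.6%) lower. Of the 11122 genes called with the days together, 10994 (98.8%) had the same sign on all 3 days and 7877 (70.8%) were called on all 3. Of those at 4-fold or more, 5862 of 5874 (99.8%) had the same sign and 5123 (87.2%) were called on all 3. Another 1691 genes were called on exactly 2 days, 1527 on exactly 1, and 1735 on none. In either direction 75.4%, 72.6% and 74.5% of genes were called on days 1, 2 and 7. The days share no library, but they share the estimate of spread. Genes called with the days together, and those at 4-fold or more, were picked on these same libraries. Their agreement in sign between days is therefore partly built in and is no separate support.

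By list, the eggshell genes were called higher on each day in 22 of 22 cases, the seminal fluid genes lower in 63 of 63 and the sperm genes lower in 41 of 42. Neuron genes had daily medians of -3.07, -3.21 and -1.77 on days 1, 2 and 7, and their sums were 503.8 to 522.9 CPM, 268.5 to 464.9 CPM and 563.6 to 760.4 CPM in females and 2423 to 3075 CPM, 1309 to 2828 CPM and 1499 to 1905 CPM in males. Antimicrobial peptide genes had medians of -2.58, -0.35 and -2.51, and midgut digestive enzymes of -0.59, 0.49 and -1.43. For digestive enzymes, day 2 was the day on which the female library that stands apart had a sum of 30800 CPM, against 8286 and 8744 CPM in the other day 2 females and 5645 to 20170 CPM in day 2 males. Metallothionein genes had medians of -0.91, -0.54 and -3.32, with sums of 867 to 1259 CPM, 866.6 to 3157 CPM and 823.2 to 1308 CPM in females and 1873 to 2392 CPM, 2542 to 2604 CPM and 4229 to 4790 CPM in males. The 3157 CPM were in the female library that stands apart, above every day 2 male, and the other day 2 females had 918.8 and 866.6 CPM. Differences between daily medians of a list were not tested.

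**Figure D4:**
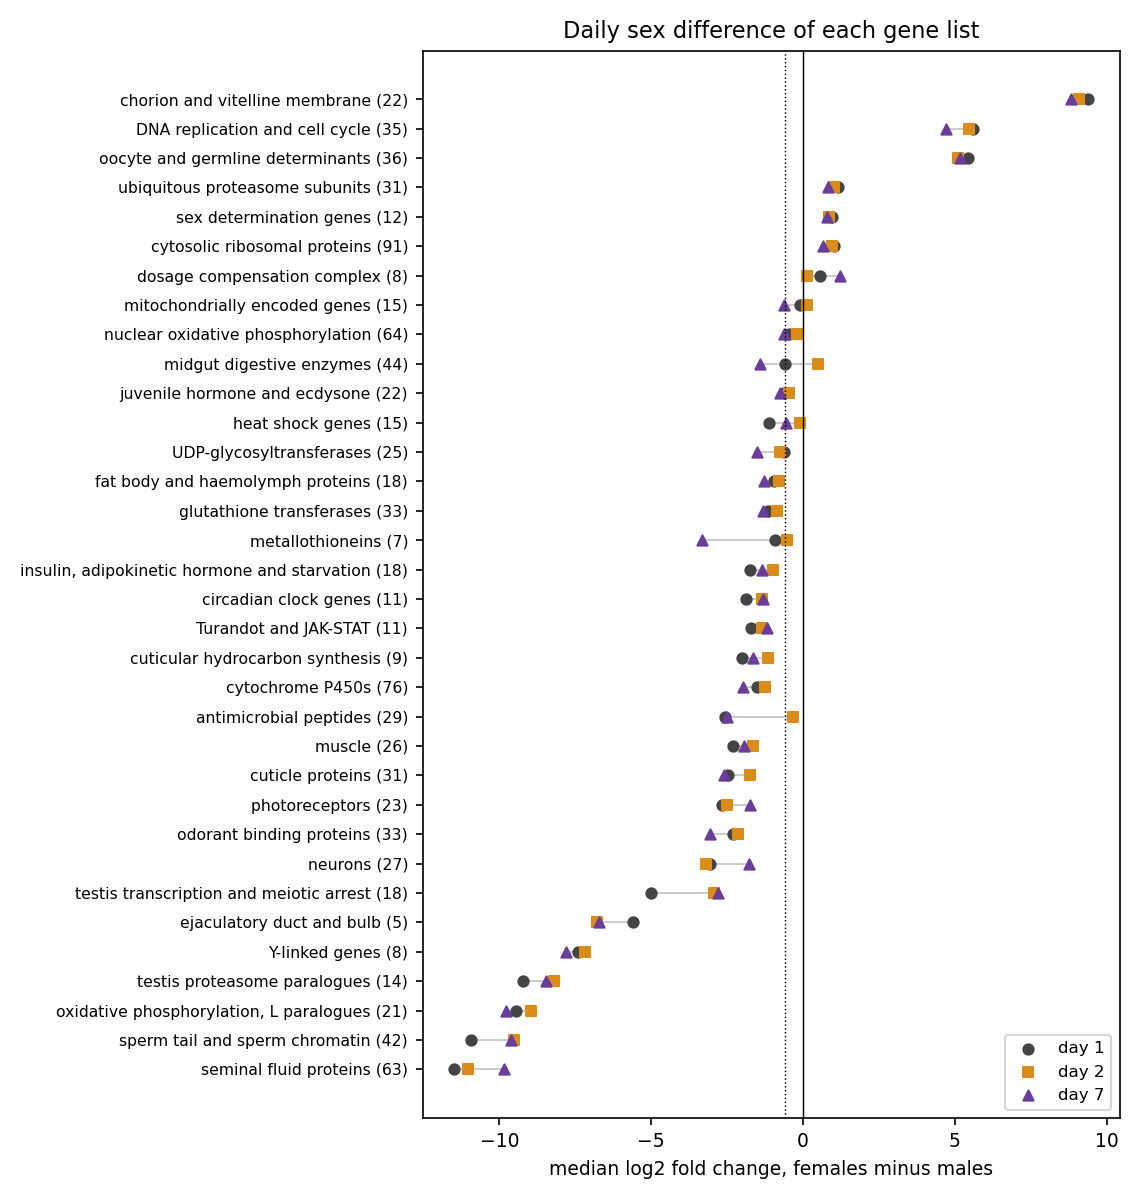
Median log2 fold change, females minus males, of the tested members of each list with at least 5 tested genes on days 1, 2 and 7 (symbols), with the number tested in brackets; the solid line marks 0 and the dotted line the median of all genes, -0.60. Most lists keep their side of 0 on all 3 days, whereas midgut digestive enzymes (0.49) and mitochondrially encoded genes (0.14) lie above 0 on day 2 and below it on days 1 and 7.

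The change of the sex difference over days was then tested itself. The F test that the 3 daily differences are equal called 12 genes (0.0934% of those tested; edgeR, adjusted p below 0.05), and 1479 genes had an unadjusted p below 0.05. DESeq2's likelihood ratio test called 269. In each of the 12 genes the female minus male difference on day 7 was below that on day 1. The gene phu had 0.225, 0.791 and 0.812 CPM in females and 5.20, 9.27 and 5.18 CPM in males on day 1. On day 2 it had 79.8, 9.25 and 18.8 CPM in females and 3.32, 9.65 and 3.60 CPM in males, and on day 7 0.099, 0.406 and 0.554 CPM in females and 29.3, 27.0 and 41.3 CPM in males. Females were thus below males without overlap on days 1 and 7, and on day 2 the sexes overlapped. Its daily log2 fold changes were -3.43, 2.71 and -6.47 (adjusted p = 7.7e-04 for the change). The alkaline phosphatase gene Alp2 had 13.3 to 20.3, 39.6 to 53.0 and 2.59 to 10.1 CPM in females and 63.6 to 79.99, 20.8 to 30.7 and 55.5 to 69.1 CPM in males on days 1, 2 and 7. The sexes did not overlap on any day, and females were below males on days 1 and 7 and above them on day 2 (log2 -2.04, 0.79 and -3.28; adjusted p = 7.7e-04).

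Of the other 10 genes, 2 are metallothionein genes, which bind heavy metals. MtnC had 60.1 to 97.7, 19.5 to 43.1 and 16.1 to 44.4 CPM in females and 95.2 to 114, 28.6 to 39.0 and 243.6 to 342.4 CPM in males on the 3 days (adjusted p = 0.0068). Its sex difference was -0.39, -0.20 and -3.32, so that most of it stood on day 7. MtnB had 0.03, 1.47 and -3.45 (adjusted p = 0.0485). The digestive protease gene Jon25Bi had daily differences of 1.85, 4.53 and -2.23, with 92.1 to 483.7, 174.6 to 879.7 and 4.06 to 21.5 CPM in females and 39.6 to 94.3, 4.16 to 27.6 and 38.8 to 96.3 CPM in males (adjusted p = 0.0325). The genes CG9837, CG8745, CG15533, CG9512 and CG14245 also had their lowest difference on day 7, from -3.10 for CG8745 to -5.14 for CG15533. The remaining 2, yl and CG11674, were higher in females on every day. Males had 0.142 to 0.248, 0 to 0.222 and 0.726 to 2.35 CPM of yl on days 1, 2 and 7, and females 280.8 to 717 CPM over all days. The highest male trace was in replicate 1 of day 7, the library with the most eggshell counts, and without it the adjusted p was 0.155 for yl and 0.209 for CG11674. The genes phu, Alp2 and CG9837 stayed past the threshold with each of the 18 libraries left out. With a replicate block 9 of the 12 genes missed it, CG9837 among them (adjusted p = 0.175), and only phu, Alp2 and MtnC stayed past it. In a fit of all 36 libraries 10 missed it, among them CG9837 (adjusted p = 0.148) and MtnC (adjusted p = 0.117). There only phu and Alp2 stayed past it.

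**Figure D5:**
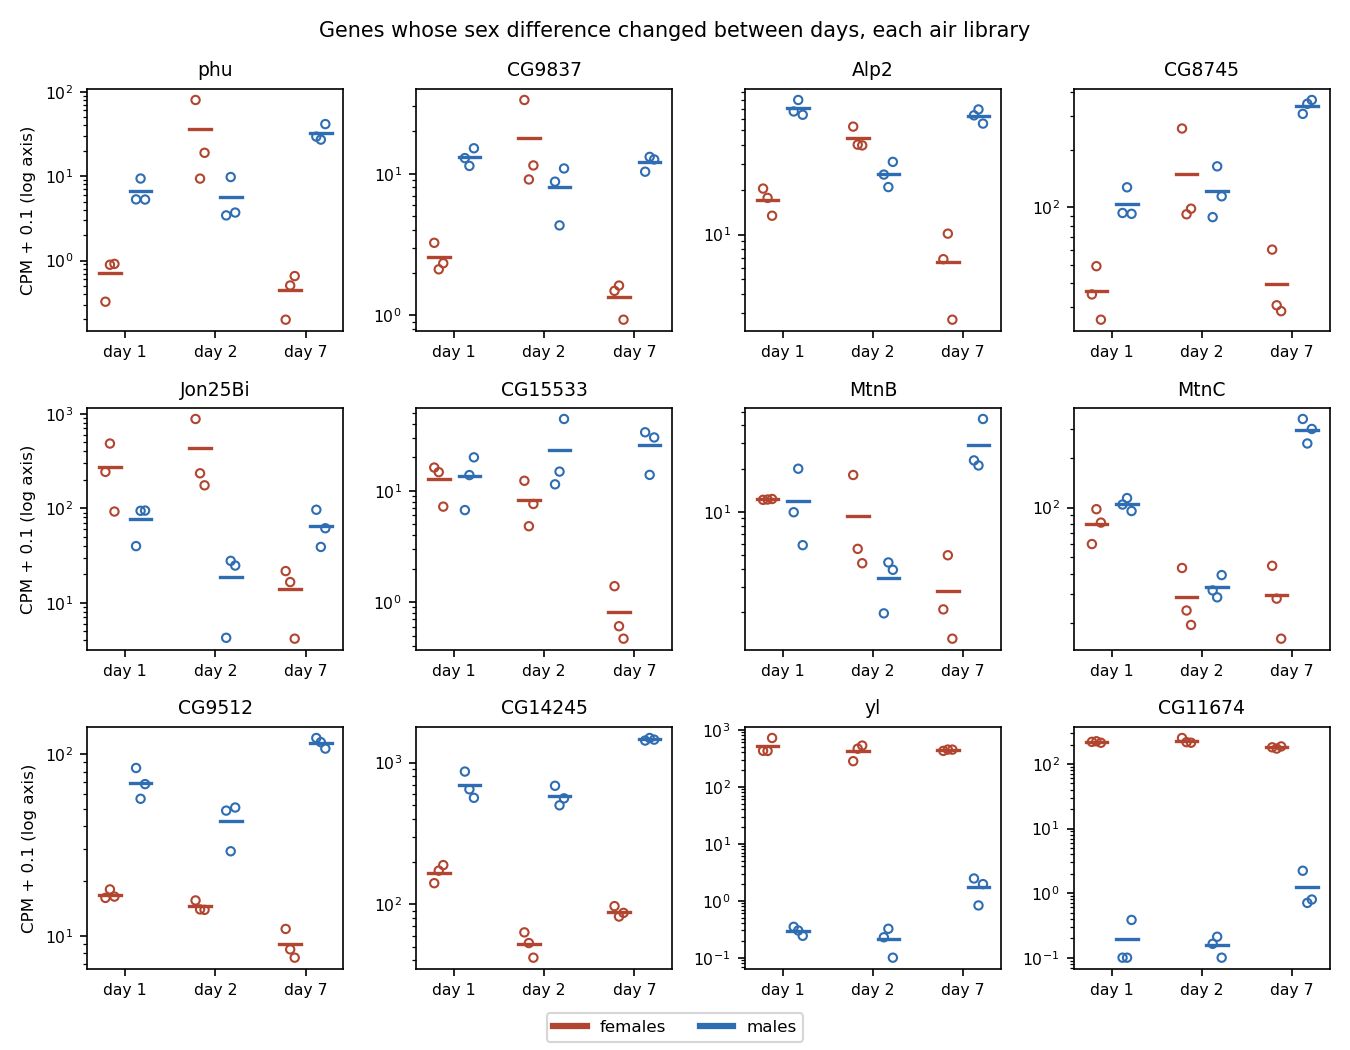
Level of the 12 genes whose sex difference changed between days, in CPM plus 0.1 on log axes, in each air library; circles are libraries and bars the means of 3, with females in red left of males in blue on each day. In phu, CG9837 and Alp2 females lie below males on days 1 and 7 and reach or pass them on day 2, whereas in yl and CG11674 females lie above males on each day and male traces are highest on day 7.

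Over all genes, 22 were called in opposite directions on 2 days. In 6 of these, among them MtnB, Lsp2 and LysD, females were higher on day 2 and lower on day 7, and in another 5, among them phu, Alp2 and CG9837, they were higher on day 2 and lower on days 1 and 7. Jon25Bi was higher on days 1 and 2 and lower on day 7. Lsp2, a larval storage protein gene expressed in fat body, had daily log2 differences of -0.17, 1.48 and -1.56, and the lysozyme gene LysD -0.47, 2.12 and -1.43. Their tests of change over days missed the threshold (adjusted p = 0.239 and 0.107). Day 2 includes the female library that stands apart. Its fat body sum was 7762 CPM, against 4873 and 4976 CPM in the other day 2 females. Whether the day 2 calls of the 22 genes hold without that library was not tested gene by gene.

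The sex difference was last repeated in the exposed flies, whose libraries were not used above. Of 18 exposed libraries, 16 entered, since replicate 1 of the day 2 exposed females and replicate 3 of the day 2 exposed males hold markers of both sexes (254.2 and 209.8 CPM of roX1 and 6206 and 6700 CPM of Yp1, scaled by library totals). In exposed flies 4608 genes (35.9%) were higher and 6711 (52.2%) lower in females, 88.1% in either direction. Of the genes called higher in air females, 4437 were also called higher in exposed females, which is 94.1% of the 4716 and 96.3% of the 4608. Of those called lower, 6248 were called lower in exposed females, which is 97.5% of the 6406 and 93.1% of the 6711, and 0 were called the opposite way. Across the 12852 genes, which are not independent replicates, the 2 sets of log2 fold changes correlated at 0.98. A test of the difference itself, the interaction of sex and treatment, called 0 genes (0% of those tested; edgeR, 34 libraries), with 875 genes at an unadjusted p below 0.05 and 1 gene called by DESeq2. For the eggshell genes Cp36 and Cp19 the log2 fold changes were 7.595 and 6.17 in exposed flies and 10.18 and 10.15 in air, and the interaction missed the threshold (adjusted p = 0.706 and 0.616).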

How the data were processed

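The authors deposited 1 table per library with whole-number read counts per gene, unnormalized. Trimming, alignment and counting used fastp, STAR and HTSeq on dm6, per the submitters' processing notes; the sources used here give neither versions nor the strand setting. Depth was 8133477 to 17182966 counts in the 18 air libraries. Genes passing filterByExpr (minimum count 10, minimum total 15) were fitted with edgeR 4.0.16 in R 4.3.3 (limma 3.58.1 installed), scaled by TMM and tested by quasi-likelihood F: day plus sex over 18 libraries, sex within each day and its change over days in 6 groups of 3, the same in 16 exposed libraries, and sex by treatment in 34. P-values were adjusted over all genes tested (Benjamini-Hochberg). CPM use TMM scaling, and a fold against 0 counts uses 3 counts per library as floor. DESeq2 1.42.0, its size factors, library totals, no filter, a filter at 5 CPM in 3 libraries, a replicate block and leaving out each library were alternatives. Code was tested on simulated data. Positions are from BDGP6.54 (dm6): of 17582 symbols, 17290 matched by symbol, 246 through RefSeq and 46 not.

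The members and gene lists were chosen with earlier results of these data known. Genes named in the text are fixed key genes, the 10 largest changes per direction without overlap on any day and at least 5 CPM in the higher sex, up to 4 per list by smallest p, the 8 smallest p per direction of the test over days, up to 8 genes called in opposite directions on 2 days, and listed pairs. Exceptions within a list, genes of 1 RNA class, the genes with no count in males and the last 4 of the 12 genes that changed over days were named after their values were seen. Same-numbered replicates of the sexes were checked for pairing: their deviations correlated at -0.245 to 0.0659 over 9 pairs, none above 0.1, so the numbers were not taken to pair libraries. Values of 1 item are not reported here.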

Additional observations from a re-analysis of the deposited data

Results flagged for a closer look

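For 12 genes the difference between females and males was itself different between days (edgeR quasi-likelihood F test, n = 3 a group). The day 2 difference minus the day 1 difference, in log2 units, was 6.14 for phu, 3.56 for CG9837, 2.83 for Alp2, 2.68 for Jon25Bi, 1.80 for CG8745 and 1.44 for MtnB. It was 0.66 for CG11674, 0.48 for CG9512, 0.35 for yl, 0.19 for MtnC, -1.42 for CG14245 and -1.43 for CG15533. With each of the 18 libraries left out in turn, MtnC stayed past the threshold in 17 cases, CG9512 in 15, CG14245 in 13, CG8745 in 12, yl and Jon25Bi in 10, CG15533 in 9, CG11674 in 8 and MtnB in 7.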

How the results depend on the processing

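The number of genes whose sex difference changed over days moved most with the processing. It was 12, against 29 with library totals, 55 without a filter, 269 with DESeq2, 1479 at an unadjusted p below 0.05, 3 with a replicate block and 2 in a fit of all 36 libraries. Leaving out 1 library gave 3 (without replicate 2 of the day 7 females) to 74 (without replicate 3 of the day 2 males). It was 59, 30 and 19 without replicate 1, 2 or 3 of the day 2 females, 21 and 4 without replicate 1 of the day 1 or day 7 males, 7 without replicate 1 of the day 1 females and 4 without replicate 3 of the day 7 females. Sex by treatment gave 0, against 1 with DESeq2 and 875 unadjusted, and 0 to 1 without 1 library. A test against a 2-fold minimum called 2904 genes higher in females with the days together, 2466, 2557 and 2402 on days 1, 2 and 7, 1906 on each day and 2797 in exposed flies. Other counts stayed within 1.5 times. List medians moved by more than the replicate spread of their sums for 21 of 37 lists with DESeq2's size factors in edgeR and for 23 with DESeq2. Among named genes, RpL22 changed sign in both (-0.054 in both), and the cause was not tested. In both, lrRNA, Prosbeta2, Cyt-c-p, ATPsynbeta and alphaTub84B lost their call and alphaTub84D gained one. The replicate numbers did not pair the libraries, and 2 of 9 pairs correlated best with their own number. The filters tested 12852, 16043 and 10565 genes. Floors of 0.183 to 0.363 CPM limit what can be seen in the lower sex.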

Other observations

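Genes of the Turandot and JAK-STAT list, which respond to stress, were tested in 11 of 14 cases. Of these, 8 (72.7%) were lower and 2 (18.2%) higher in females, against 49.8% and 36.7% of all genes. Their sums were 398.6 to 1149 CPM in females and 760.5 to 4218 CPM in males and overlapped. Testis relatives of proteasome subunits were lower in females in 14 of 14 cases and on each day, with sums of at most 2.52 CPM in females and 109.7 to 239.6 CPM in males. Chemoreceptors were near the limit of detection: 4 of 60 gustatory and 2 of 59 odorant receptor genes passed the filter on low counts, of which 3 and 1 were lower in females.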
